A study of Mus musculus with 9 samples.

Results

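In cells of the embryonic mouse forebrain, 34 genes that still carry a RIKEN clone name were at a higher mean level under forced expression of both GemC1 and Mcidas than with GFP alone. They are the Rik genes (symbols ending in Rik in the GENCODE M21 annotation) whose mean level was at least 0.5 CPM (the count of a gene scaled to a library total of 1000000) with GemC1 and with Mcidas, and at least 4 times the mean of the GFP libraries with each. The deposited tables list 2921 Rik genes, of which 2039 had at least 1 count and 926 reached the minimum level in both factor groups, so the 34 are 3.67% of those 926. The genes were thus chosen by their measured CPM in each factor group against GFP, and their values against GFP are given as a description. The direct comparison of GemC1 with Mcidas was not a criterion of the choice and was tested. It is not independent of the choice, because the limits had to be met with both factors. Rik genes that met them with 1 factor alone, 4 with GemC1 and 11 with Mcidas, were left out.

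The RNA came from embryos of the strain C57Bl6DBa2 whose forebrains received plasmids by in utero electroporation at E14.5. GFP-positive cells, labelled as neural progenitor cells, were collected by flow sorting at E16.5, 2 days later. The GemC1 group (n = 3 libraries) received pCAGGS-GemC1, the Mcidas group (n = 3) pCAAGS-Mcidas, and the control group (n = 3) an H2B-GFP plasmid. The labels say "and/or" for H2B-GFP, so whether every factor library also carried it is not given. The CAG promoter is strong and active in most cell types, so both factors were forced, and only cells that took up plasmid were sorted. Whether a library is 1 embryo or a pool is not given in the sources used here, so the p-values measure the spread between these libraries, which may be technical.

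GemC1 (gene Gmnc) and Mcidas are coiled-coil proteins of the geminin family that act with E2F4 or E2F5 and DP1 to start the programme of multiciliated cells. Ependymal cells, which line the brain ventricles and move cerebrospinal fluid, arise from radial glia in this way: p73 and Foxj1 are switched on, centrioles are amplified around deuterosomes, and axonemes with dynein arms, radial spokes and a central pair are built. Much of the same axonemal machinery builds the sperm tail. RIKEN names record the mouse cDNA library in which a transcript was first sequenced, and clones whose names begin with 1700, like most of those that begin with 49, came from adult testis. Names with 1700 belonged to 11 of the 34 genes (32.4%), against 516 of all 2921 Rik genes (17.7%) and 93 of the 926 above the level minimum (10%). Names with 49 belonged to 7 of the 34 (20.6%), against 834 of all Rik genes (28.6%) and 159 of those above the minimum (17.2%), so they were not more frequent than among all Rik genes.

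Total counts ran from 22914704 to 41163917 per library, so that 3 counts corresponded to 0.0729 to 0.131 CPM. The transcripts of the plasmids matched the labels. Gmnc stood at 289.5, 231 and 319 CPM with GemC1, at 0.258, 0 and 0.262 CPM with Mcidas, and at 0 in the GFP libraries. Mcidas stood at 386, 519 and 602 CPM in its own libraries, at 62.3 to 76.4 CPM with GemC1, and at 0.639 to 0.662 CPM with GFP. The summed level of 11 neural progenitor markers was 1469 to 1675 CPM with GemC1, 1100 to 1402 with Mcidas and 1003 to 1308 with GFP, and 9 cortical neuron markers summed to 4544 to 4842, 4702 to 5409 and 5312 to 6047 CPM, so neuronal transcripts were abundant in all groups. The sum of 14 microglial and macrophage markers, none of them at 0, was 78.7 to 112 CPM with GemC1, 48.8 to 72.0 with Mcidas and 31.4 to 45.7 with GFP. The sum of 8 choroid plexus markers was 3.54 to 9.05 CPM with GemC1 (Ttr and Kl at 0), 2.98 to 7.20 with Mcidas (Folr1 and Prlr at 0) and 0.316 to 0.719 with GFP (Kl and Otx2 at 0). That sum rested on 1 gene, Clic6, at 5.53 ± 3.19 CPM with GemC1, 5.40 ± 2.47 with Mcidas and 0.105 ± 0.183 with GFP (SD, n = 3 each), while the means of the other 7 markers lay between 0 and 0.257 CPM in every group, and Aqp1 and Prlr were lower with both factors. The microglial sum was above the GFP range with both factors, and the progenitor sum with GemC1, whereas the progenitor ranges of Mcidas and GFP overlapped. With GemC1 the means of Hes1 (8.37 CPM against 13.7 with GFP), Hes5 (45.1 against 52.8) and Nes (76.8 against 78.8) were lower. The other progenitor markers had higher means, among them Fabp7 at 586 CPM against 395 with GFP. Of the microglial markers, Tmem119 alone had a lower mean with Mcidas (1.40 CPM) than with GFP (2.02), and none with GemC1. The part of the microglial and progenitor transcripts and of Clic6 in the levels below was not tested. In bulk RNA, more cells of a type and more RNA per cell cannot be told apart.

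The 34 genes lie on 16 chromosomes. GENCODE M21 calls 17 of them protein-coding, 4 lincRNA, 4 processed transcript, 4 bidirectional promoter lncRNA, 3 antisense, 1 a transcribed unitary pseudogene and 1 TEC (a transcript to be experimentally checked). Protein-coding genes were 50% of the 34 but 19.7% of all Rik genes, many of which did not reach the level minimum. Their share among the Rik genes above that minimum was not counted. In turn, 17 of 576 protein-coding Rik genes at any level met the limits (2.95%), against 332 of 21289 other protein-coding genes (1.56%). Among genes of any biotype above the minimum in both factor groups, 3.67% of Rik genes and 2.24% of other genes met the limits. The plot of levels by library shows all 34.

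**Figure D1:**
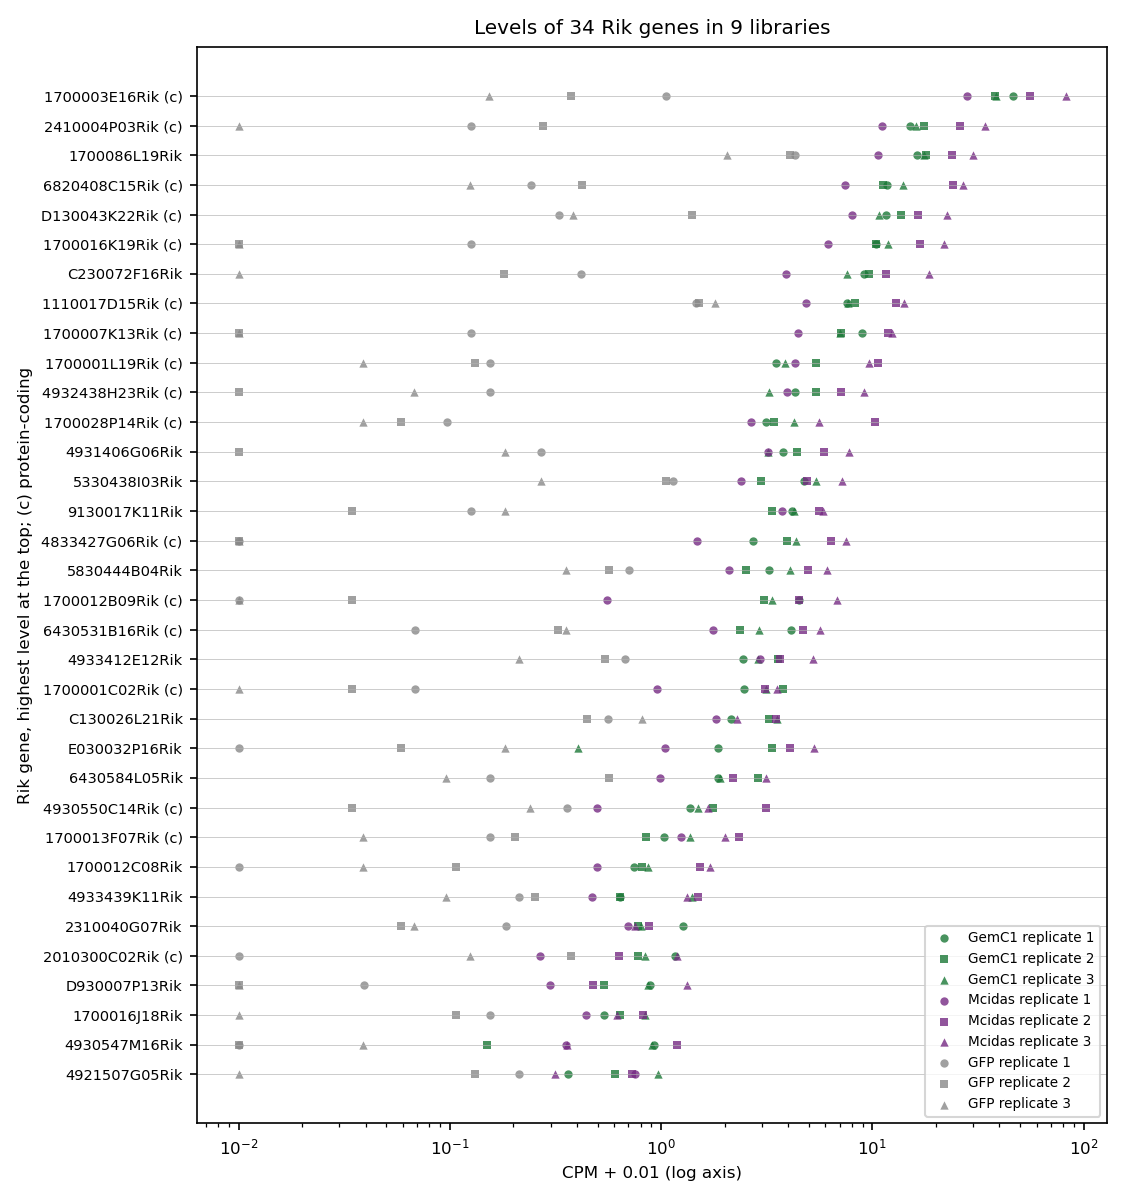
Level of each of the 34 Rik genes (rows, ordered by mean CPM over the 6 GemC1 and Mcidas libraries; (c) marks protein-coding genes) as CPM + 0.01 on a log axis. Each point is 1 library; a point at the left edge is a library with 0 counts. The GemC1 libraries lie above all GFP libraries in all 34 genes and the Mcidas libraries in 33.

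Summed over the 34 genes, the level was 195, 195 and 192 CPM in the GemC1 libraries, 124, 294 and 364 CPM in the Mcidas libraries, and 13.4, 13.1 and 7.71 CPM in the GFP libraries. The GemC1 libraries lay close together, whereas the Mcidas libraries spread from below to far above them. A single gene, 1700003E16Rik, supplied 21.2% of the sum in the factor libraries, and 4 genes supplied 45.5%. By the deposited counts, 14 of the 34 had a mean below 0.1 CPM in GFP cells, and 7 were at 0.5 CPM or more there.

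The protein-coding genes come first, beginning with those that RefSeq or the literature ties to cilia, flagella or microtubules. 1700007K13Rik (chr2:28462001-28466332, minus strand, GRCm38) is listed by RefSeq with the synonym Rbest47 and is known elsewhere as Pierce1, a protein inside the doublet microtubules of the axoneme that was first described as induced by p53. It stood at 8.94, 7.08 and 6.999 CPM with GemC1, at 4.45, 11.9 and 12.4 CPM with Mcidas, and at 0.116, 0 and 0 CPM with GFP. All 6 factor libraries were high and the GFP libraries held 4 counts in all, a ratio of means of 198 with GemC1 and 247 with Mcidas. The gene is shown with a stretch of its promoter because the series concerns the p53 response. The RefSeq promoter window (250 bases before to 50 after the start, GRCm38.p6) held 2 matches to the 10-base p53 consensus, of which a full p53 element has 2 copies close together. They lie apart, at positions -91 to -82 and 30 to 39 from the RefSeq start, and the first is in capitals here within chr2:28466386-28466435, minus strand.

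1700007K13Rik: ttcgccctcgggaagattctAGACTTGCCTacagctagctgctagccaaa

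At least 1 such match occurred in 3 of the 22 windows found for the 34 genes (13.6%) and in 8.36% of all 32851 windows in the table, and is a description of the letters alone.

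4833427G06Rik (chr9:51081115-51102078, minus strand) is Hoatz in RefSeq, a gene known for roles in motile cilia and sperm flagella. It stood at 2.70, 3.92 and 4.33 CPM with GemC1 and at 1.46, 6.34 and 7.51 CPM with Mcidas. It was the only one of the 34 with no count in any GFP library, and was at least 44.4-fold higher with GemC1 and at least 62.2-fold higher with Mcidas, taking 3 counts per GFP library as the floor. 1700013F07Rik (chr3:108534150-108544723, plus strand), now known as Cfap276 and also a microtubule inner protein, was a low-level gene at 1.02, 0.841 and 1.35 CPM with GemC1, 1.23, 2.33 and 2.01 with Mcidas and 0.145, 0.194 and 0.0288 with GFP.

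1700001L19Rik (chr13:68597421-68614231, plus strand) and 1700028P14Rik (chr19:23558753-23652812, minus strand) were later renamed Cfap90 and Cfap95 as cilia and flagella associated proteins. 1700001L19Rik stood at 3.51, 5.43 and 3.86 CPM with GemC1, at 4.27, 10.6 and 9.64 CPM with Mcidas, and at 0.145, 0.121 and 0.0288 CPM with GFP. 1700028P14Rik stood at 3.12, 3.40 and 4.23 CPM with GemC1, at 2.67, 10.3 and 5.59 CPM with Mcidas, and at 0.0872, 0.0486 and 0.0288 CPM with GFP. In both, the highest libraries were those of Mcidas replicates 2 and 3, and Mcidas replicate 1 fell among the GemC1 libraries or below them.

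RFX factors, which bind the X-box of ciliary promoters, and forkhead factors such as Foxj1 act on many axonemal genes. The promoter windows were therefore searched on both strands for the full X-box (GTTNCC, 3 bases of any kind, then GNAAC), for 1 arm of it, GTTGCC, and for the forkhead motif GTAAACA. None of the 22 windows held the full X-box in this form, which 0.804% of all windows hold. Full X-boxes with another spacing or other bases were not searched at this step, so their absence is not shown. The single arm was in 5 of 22 (22.7%) against 12.5% of all windows, and the forkhead motif was in 1 of 22 (4.55%) against 3.65%. A closer arrangement was in 1700001L19Rik, where 2 arms face each other 1 base apart at positions -21 to -9. Positions are counted from the RefSeq start of each window, which can differ from the GENCODE start. In 1700001L19Rik the RefSeq start lies downstream, and the facing arms span the GENCODE start, 68597421. That pattern, GTTGCC, 1 base of any kind and GGCAAC, was searched after this match had been seen and occurs in 14 of all 32851 windows (0.0426%). It overlaps the GTTGCC motif on each strand. The stretch is chr13:68597398-68597450, plus strand, with the facing arms in capitals.

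1700001L19Rik: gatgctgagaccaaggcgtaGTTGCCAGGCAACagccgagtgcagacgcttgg

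Among the other genes with an X-box arm, 1700001C02Rik had 2 copies and the forkhead match close to its RefSeq start, and 1700012B09Rik had 1 copy. The forkhead match of 1700001C02Rik lies downstream of the GENCODE start of that gene, 30466047. The stretches shown are chr5:30466002-30466047 and chr5:30466038-30466084 (plus strand) for 1700001C02Rik and chr9:14771083-14771128 (minus strand) for 1700012B09Rik. Capitals mark the arm or, in the second line, the forkhead motif as it reads on the opposite strand.

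1700001C02Rik arm: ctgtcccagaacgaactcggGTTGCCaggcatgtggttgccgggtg
1700001C02Rik forkhead: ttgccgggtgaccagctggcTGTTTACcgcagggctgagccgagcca
1700012B09Rik arm: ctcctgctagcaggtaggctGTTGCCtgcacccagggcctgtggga

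1700001C02Rik, Fam166c in RefSeq, stood at 2.45, 3.78 and 3.14 CPM with GemC1, at 0.947, 3.08 and 3.53 CPM with Mcidas, and at 0.0581, 0.0243 and 0 CPM with GFP. With 3 counts over the GFP libraries its ratio was 114 with GemC1 (95% counting interval 38.9 to 561) and 91.7 with Mcidas (29.4 to 426). 1700012B09Rik stood at 4.49, 3.05 and 3.33 CPM with GemC1 and at 0.545, 4.48 and 6.76 CPM with Mcidas. Of the 34 genes it had the lowest Mcidas replicate 1 relative to the GemC1 mean, at -2.73 on the log2 scale. Its single GFP count gives ratios of 447 (71.1 to 15814) and 485 (69.5 to 15458). The remaining windows with an arm were those of 2 noncoding genes, C130026L21Rik and 4933439K11Rik. The E2F motif TTCCCGC and the MYB motif TAACGG were in none of the 22 windows (4.6% and 2.76% of all windows).

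1700003E16Rik (chr6:83156404-83162945, plus strand) had the highest level of the 34 per kilobase of exon as well as in total, 21.7 CPM per kilobase over the 6 factor libraries. It stood at 46.2, 37.9 and 38.5 CPM with GemC1, at 28.1, 55.9 and 82.3 CPM with Mcidas, and at 1.05, 0.364 and 0.144 CPM with GFP. Each factor library exceeded each GFP library, and the ratios of means were 78.8 and 107.

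2410004P03Rik (chr12:17003319-17011727, minus strand) was at 15.1, 17.5 and 16.01 CPM with GemC1, 11.1, 26.0 and 34.2 with Mcidas, and 0.116, 0.267 and 0 with GFP. 6820408C15Rik (chr2:152415587-152444330, plus strand) was at 11.7, 11.2 and 13.9 CPM with GemC1, 7.43, 24.1 and 26.8 with Mcidas, and 0.232, 0.413 and 0.115 with GFP. The protein product of neither is named in the RefSeq table, and in both the Mcidas libraries bracketed those of GemC1.

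D130043K22Rik (chr13:24845135-24901270, plus strand) is Kiaa0319, a membrane glycoprotein known as a dyslexia candidate gene in people. It was at 11.6, 13.7 and 10.8 CPM with GemC1, 7.97, 16.48 and 22.5 with Mcidas, and 0.320, 1.38 and 0.374 with GFP. 1700016K19Rik (chr11:75999912-76003569, plus strand) is Liat1, a ligand of the arginyltransferase ATE1. It was at 10.4, 10.4 and 11.8 CPM with GemC1 and 6.17, 16.8 and 21.9 with Mcidas, with 0.116, 0 and 0 in GFP, and at 14.0 CPM per kilobase it had the third highest level per length. 1110017D15Rik (chr4:41505009-41517333, minus strand) is Smrp1, a protein of the spermatid manchette, a microtubule structure. It was at 7.61, 8.30 and 7.63 CPM with GemC1, 4.85, 12.9 and 14.1 with Mcidas, and 1.45, 1.51 and 1.78 with GFP, so that, unlike most of the list, it was present in the control cells at a level well above 3 counts.

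4932438H23Rik (chr16:91053935-91095122, minus strand) was at 4.31, 5.43 and 3.24 CPM with GemC1, 3.93, 7.06 and 9.12 with Mcidas, and 0.145, 0 and 0.0575 with GFP. Its antisense partner 4931406G06Rik, also one of the 34, shares 729 bp of exon with it, 58.2% of its own exon length and 25.4% of that of 4932438H23Rik, and RefSeq lists both names as a single gene. The antisense gene was at 3.75, 4.41 and 3.20 CPM with GemC1, 3.21, 5.88 and 7.77 with Mcidas, and 0.261, 0 and 0.173 with GFP. The library kits do not mark strand, so reads in the shared exon cannot be assigned to either and the levels of both are uncertain.

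6430531B16Rik (chr7:139972303-139978755, minus strand) is Spef1l, a relative of Spef1, a protein of the central pair. It stood at 4.10, 2.35 and 2.91 CPM with GemC1, 1.75, 4.70 and 5.63 with Mcidas, and 0.0581, 0.316 and 0.345 with GFP, and 49.8% of its exon length overlaps Gm16201 on the other strand. 4930550C14Rik (chr9:53402325-53434402, plus strand), Mfi in RefSeq, was at 1.37, 1.75 and 1.49 CPM with GemC1, 0.488, 3.14 and 1.66 with Mcidas, and 0.349, 0.0243 and 0.230 with GFP. 2010300C02Rik (chr1:37611677-37720085, minus strand), Cracdl in RefSeq, was at 1.16, 0.771 and 0.825 CPM with GemC1, 0.258, 0.622 and 1.18 with Mcidas, and 0, 0.364 and 0.115 with GFP. It was the 1 gene of the 34 in which a Mcidas library fell below a GFP library.

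The coding sequences were mostly short: the longest annotated one had a median of 684 bp over the 17 protein-coding genes, from 396 bp to 3525 bp.

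Of the 17 genes of other biotypes, 1700086L19Rik (chr12:74284242-74295945, plus strand), the transcribed unitary pseudogene, had the highest level, 18.0 CPM per kilobase, second among the 34. It was at 16.2, 18.0 and 17.5 CPM with GemC1, 10.7, 23.9 and 29.8 with Mcidas, and 4.30, 4.08 and 2.04 with GFP, the highest GFP level of the list. C230072F16Rik (chr17:80896793-80933045, plus strand), a lincRNA, was at 9.12, 9.60 and 7.59 CPM with GemC1, 3.90, 11.5 and 18.5 with Mcidas, and 0.407, 0.170 and 0 with GFP. Its ratios of means were 45.6 and 58.8.

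The other noncoding genes were lower. As a group the noncoding genes had a median of 0.979 CPM per kilobase over the factor libraries, from 0.265 to 18.0, against 4.498 CPM per kilobase, from 0.158 to 21.7, for the protein-coding genes. 4 genes of the list had 1 to 3 counts in all GFP libraries together, 2 of them noncoding: D930007P13Rik, with ratios of 77.8 (14.45 to 3342) and 71.0 (11.6 to 2713), and 4930547M16Rik, with ratios of 67.5 (12.4 to 2893) and 65.2 (12.3 to 2859). Relative to its mean, E030032P16Rik varied most of the 34 among the GemC1 libraries, at 1.86, 3.33 and 0.396 CPM, and was at 1.03, 4.07 and 5.28 CPM with Mcidas and 0, 0.0486 and 0.173 with GFP. It lies within Cfap299 on the same strand and shares 9.45% of its exon length with it. The 4 genes 6430584L05Rik, 2310040G07Rik, 4933439K11Rik and 1700016J18Rik ranged from 0.526 to 2.87 CPM over the GemC1 libraries, 0.430 to 3.14 over the Mcidas libraries and 0 to 0.559 over the GFP libraries, and in each of them all factor libraries lay above all GFP libraries.

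The limit of 4 times fell between genes whose smaller ratio, for either factor, was 3.69 and 4.21. Just inside it were C130026L21Rik, with ratios of 4.96 for GemC1 and 4.21 for Mcidas, 2010300C02Rik with 5.74 and 4.29, and 1110017D15Rik with 4.96 and 6.72. C130026L21Rik was at 2.14, 3.22 and 3.53 CPM with GemC1, 1.81, 3.48 and 2.27 with Mcidas, and 0.552, 0.437 and 0.806 with GFP. Just outside were 1700030J22Rik, with ratios of 3.69 and 3.98 at 9.13 ± 1.11 CPM with GemC1, 9.84 ± 3.94 with Mcidas and 2.47 ± 1.01 with GFP (SD, n = 3 each), 2010001K21Rik with 3.51 and 5.27, and 9330118I20Rik with 3.46 and 3.39. Rik genes that met the limits with 1 factor alone numbered 4 for GemC1 and 11 for Mcidas.

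Fitted across all 19572 genes that passed the filter on low counts, all 34 of them included, edgeR's quasi-likelihood test with Benjamini-Hochberg adjustment at 0.05 called 31 of the 34 higher with GemC1 than with GFP and 31 higher with Mcidas. Over all genes it called 3.86% higher with GemC1 and 4.03% higher with Mcidas. Since the same contrast chose the 34, nothing is read from these counts. Their median log2 fold change was 4.28 with GemC1 and 4.94 with Mcidas, also with 4833427G06Rik held at its lower bound, and the highest among the other genes was 8.10 for 1700012B09Rik with GemC1 and 8.49 for 1700016K19Rik with Mcidas. The groups did not overlap in all 34 with GemC1 (15.7% of all genes) and in 33 with Mcidas (12.6%). Those without a call were 2010300C02Rik and 4921507G05Rik in both comparisons, 4933439K11Rik with GemC1 and 1700016J18Rik with Mcidas, all of them under 1.1 CPM in both factor groups. Median log2 fold changes were 5.90 with GemC1 and 6.29 with Mcidas for the protein-coding genes and 2.96 and 2.98 for the others. The remaining 1092 Rik genes tested were called higher in 1.37% and lower in 1.56% of cases with GemC1, and higher in 2.01% and lower in 0.275% with Mcidas.

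The comparison of both factors asks whether the 34 genes stood at the same level in the GemC1 and the Mcidas libraries. The GemC1 libraries also held Mcidas transcript, at 62.3 to 76.4 CPM against 0.639 to 0.662 CPM with GFP. The comparison therefore does not set GemC1 alone against Mcidas. The rule also left out genes high with 1 factor only, which makes differences between the factors rarer among the 34. The shares of all genes below, which did not pass this rule, are given with that limit. None of the 34 was called different by edgeR, against 10 of all 19572 genes (0.0511%, with 0.0153% higher and 0.0358% lower with GemC1). None was called by DESeq2, against 494 of all genes (2.52%), but DESeq2 gave some of the 34 no adjusted p. A single gene had an unadjusted p below 0.05 (13% of all genes did): 1700001L19Rik, lower with GemC1 by a log2 fold change of -0.94 (SE 0.35, 95% interval -1.69 to -0.18, edgeR adjusted p = 0.285). Its libraries overlapped between the factors, and its p was no longer below 0.05 without GemC1 replicate 1, GemC1 replicate 3, Mcidas replicate 2 or Mcidas replicate 3. No gene of the 34 had all libraries of 1 factor above all of the other, against 7.48% of all genes with Mcidas above and 9.2% with GemC1 above.

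The estimates leaned one way. The log2 fold change of GemC1 over Mcidas was below 0 for 25 of the 34 and above 0 for 9, where 50.6% of all genes were below 0, and its median was -0.36 against -0.00 for all genes. Of the 17 protein-coding genes 15 were below 0, and of the 17 others 10. The 359 genes with other names that met the same limits had a median of -0.45, with 303 below 0 (84.4%). For single genes the intervals were wide. They included 0 in 33 of 34 genes, lay within 1 log2 unit of 0 in 1, C130026L21Rik (-0.53 to 0.99), and lay within 2 log2 units in 32. The other 33 intervals reached beyond 1 log2 unit, a 2-fold difference, in at least 1 direction, and the missing calls do not show that the factors act alike.

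**Figure D2:**
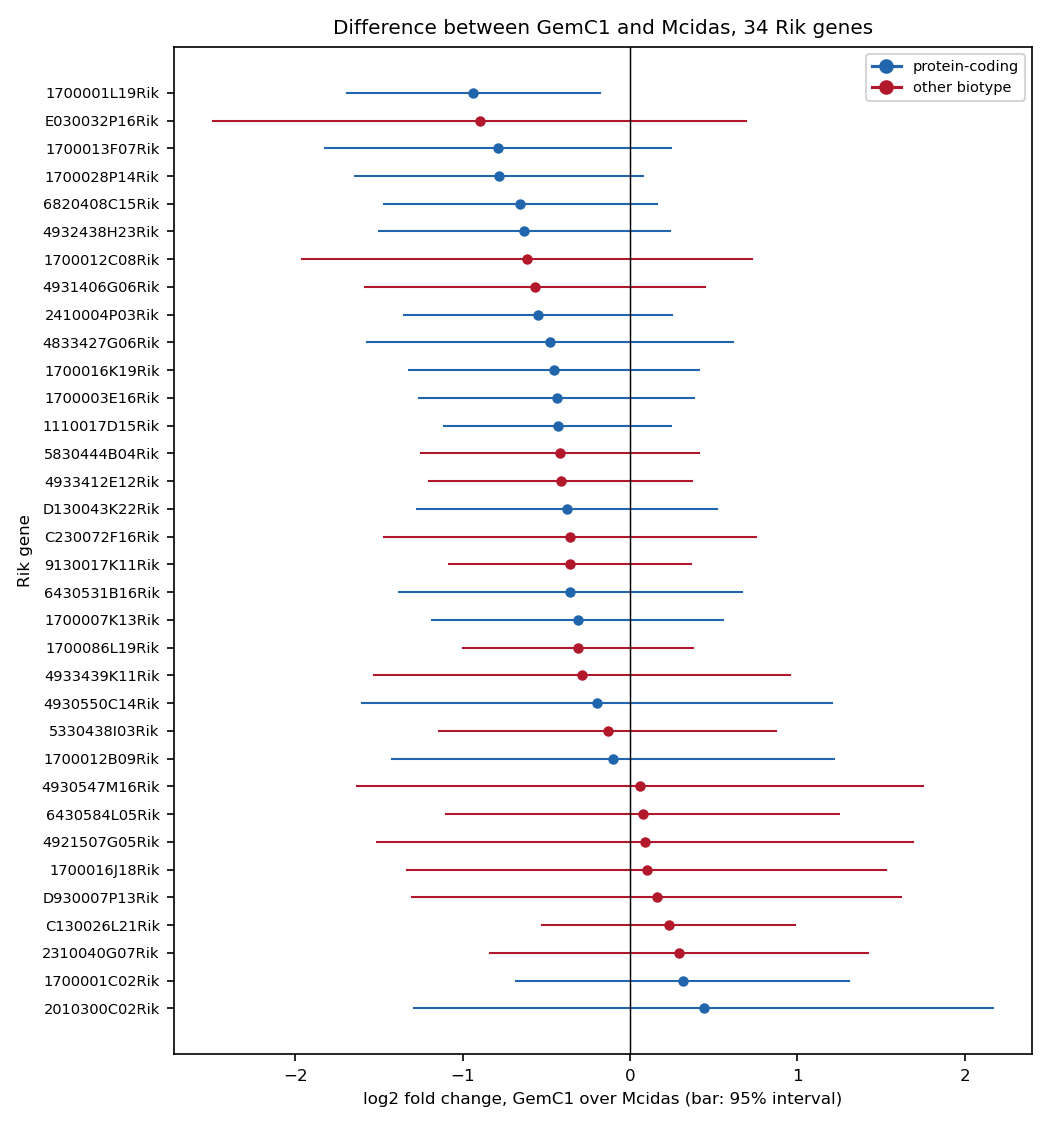
Log2 fold change of GemC1 over Mcidas for the 34 Rik genes, with its 95% interval from the edgeR fit; a value below 0 means higher with Mcidas. The estimates run from -0.94 for 1700001L19Rik to 0.44 for 2010300C02Rik, and 33 of 34 intervals include 0.

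One library carried much of that spread. Mcidas replicate 1 was the lowest of the Mcidas libraries in 33 of the 34 genes (36.8% of all genes tested) and in 336 of the 359 other genes that met the limits (93.6%). Against the mean of the GemC1 libraries, the median log2 ratio of the 34 genes was -0.71 in Mcidas replicate 1, 0.60 in replicate 2 and 0.84 in replicate 3. The Mcidas transcript itself was lowest in that library, at 386 CPM against 519 and 602, and Foxj1 stood at 95.5, 174 and 185 CPM in the same order. The part of these levels in the result was not tested. Without Mcidas replicate 1, 30 of the 34 genes were lower with GemC1 (50.2% of all genes were), with a median of -0.68. By edgeR 11 of the 34 had an unadjusted p below 0.05, and none was called (lowest adjusted p = 0.139). The share of all genes with such a p in that fit was not counted. Leaving out the library that was lowest in 33 of the 34 widens the gap by itself, so nothing is read from these counts. Without Mcidas replicate 3 the median was -0.10. The names of the deposited tables carry another year for the Mcidas libraries than for the rest, so a difference in handling and the factor cannot be told apart.

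**Figure D3:**
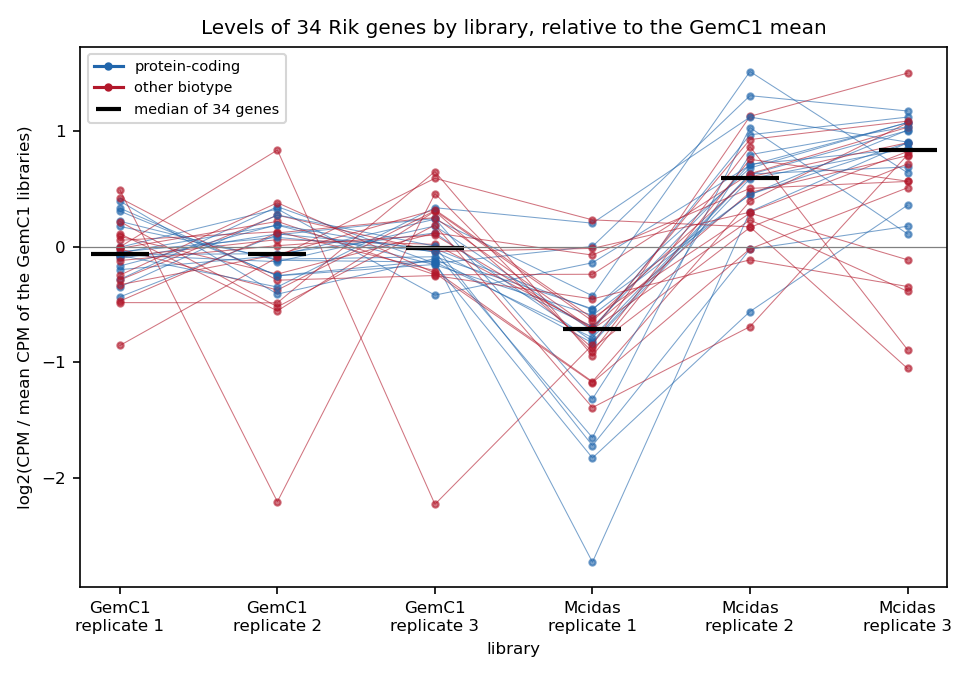
Level of the 34 Rik genes in each GemC1 and Mcidas library as log2 of CPM over the mean CPM of the GemC1 libraries. Thin lines join the values of 1 gene, and black bars are the median of the 34 genes, which is -0.71 in Mcidas replicate 1 and 0.60 and 0.84 in the other Mcidas libraries.

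Genes with known roles in multiciliated cells show what stood beside these names. The 6 lists of such genes held 111 names, some of them other names of the same gene, and 100 matched a gene. Pierce1 and Cfap276, the later names of 1700007K13Rik and 1700013F07Rik, were among the names without a match. Of the 98 genes that could be tested, 65 rose with GemC1 and 68 with Mcidas by edgeR, where 3.86% and 4.03% of all genes did. None fell with either factor and none was called between the factors, with a median log2 fold change of -0.34 for GemC1 over Mcidas. By role, 6 of 14 genes in the transcription list and 7 of 15 deuterosome and centriole genes rose with GemC1. So did 16 of 19 dynein arm genes and 7 of 11 dynein assembly genes. The same held for 17 of 22 radial spoke, central pair and nexin-dynein genes, and 12 of 17 microtubule inner protein genes. The transcription list also holds Ccno, a cyclin gene among its 6, and Ulk4, a kinase gene. Foxj1, the master regulator of motile cilia, went from 0.489 to 1.51 CPM in the GFP libraries to 103 to 141 CPM with GemC1 and 95.5 to 185 with Mcidas. Deup1, which builds the deuterosome, stood at 64.9 to 73.0 CPM with GemC1 and 57.03 to 169 with Mcidas against at most 0.316 with GFP, and was lowest in Mcidas replicate 1 within its group, as most of the 34 were. Trp73, which encodes p73, was lowest in that library too, at 112 CPM against 149.7 and 147 CPM, and stood at 116 to 174 CPM with GemC1 and 0.232 to 1.31 CPM with GFP.

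Neighbours were looked up for the 34 genes alone, so how common they are among all genes is not given. The biotypes bidirectional promoter lncRNA (4 of the 34) and antisense (3) themselves describe such a position. For 11 of the 34 a gene on the other strand starts within 1000 bp (between the nearest annotated transcript starts). These are 12 neighbours in all, of which 11 could be tested. Of these 11, 4 rose with both factors: Cfap74, a central pair protein (log2 fold change 3.29, SE 0.40, with GemC1 and 3.85, SE 0.41, with Mcidas), Armc2, needed for sperm flagella (2.22 and 2.37), Usp43, a deubiquitinase (2.20 and 2.90), and Mok, a MAPK-related kinase (1.15 and 1.42). The edgeR adjusted p was 0.0299 or lower in each case. Over all genes 3.86% and 4.03% were called higher. Of the 4, only Mok shares no exon with its Rik gene. In the other pairs the reads of the shared exon cannot be assigned to either gene. The call of Usp43 with GemC1 was lost without GemC1 replicate 1, GemC1 replicate 3, GFP replicate 1 or GFP replicate 2 (adjusted p 0.0792 to 0.093), and when only the groups compared were fitted (0.0542).

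5830444B04Rik, the neighbour of Cfap74, was at 3.23, 2.52 and 4.06 CPM with GemC1, 2.09, 4.98 and 6.11 with Mcidas, and 0.697, 0.559 and 0.345 with GFP. Cfap74 was at 19.1, 23.5 and 24.99 CPM, 12.8, 40.5 and 46.7 CPM, and 1.92, 2.77 and 1.96 CPM in the same groups, and both were lowest within their group in Mcidas replicate 1. 9130017K11Rik, the neighbour of Usp43, was at 4.17, 3.33 and 4.26 CPM with GemC1, 3.73, 5.57 and 5.80 with Mcidas, and 0.116, 0.0243 and 0.173 with GFP. Some exon is shared in these pairs: 8.37% of that of 5830444B04Rik with Cfap74, and 13.3% of that of 9130017K11Rik with Usp43. Likewise, 1700016J18Rik shares 18.5% of its exon length with Armc2.

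The neighbour of the most abundant gene did not pass. Wdr54 starts 7 bp from 1700003E16Rik, on the other strand, and stood at 26.3, 23.6 and 21.4 CPM with GemC1, 15.8, 23.1 and 25.6 with Mcidas, and 17.8, 13.5 and 14.8 with GFP. Its log2 fold change was 0.59 with GemC1 (edgeR adjusted p = 0.0829) and 0.44 with Mcidas (adjusted p = 0.303), beside 6.27 and 6.71 for 1700003E16Rik. Zcchc3, 560 bp from 6820408C15Rik, had 0.39 and 0.28 (adjusted p = 0.0729 and 0.312), beside 5.50 and 6.15. Both pass with GemC1 by DESeq2 (adjusted p = 0.0267 for Wdr54 and 0.0192 for Zcchc3). By edgeR Wdr54 also passes with GemC1 without the low-count filter (adjusted p = 0.0206), with only the groups compared (0.0471) and without Mcidas replicate 1 (0.032, and 0.0388 with Mcidas), and Zcchc3 without GemC1 replicate 3 (0.0462). Rab3ip, Mfsd4b4 and Fam219aos had values between -0.21 and 0.14 in both comparisons, with edgeR adjusted p of 0.676 or more.

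With GemC1, 2 neighbours fell (1.32% of all genes did), and with Mcidas none did (0.327%). 5330417C22Rik, a Rik gene outside the 34 that starts 998 bp from 1700013F07Rik, was at 5.47, 4.31 and 9.01 CPM with GemC1, 10.4, 17.1 and 14.4 with Mcidas and 15.1, 15.8 and 13.0 with GFP. All GemC1 libraries lay below all others, for a log2 fold change of -1.26 with GemC1 (edgeR adjusted p = 0.0134) and -0.11 with Mcidas (adjusted p = 0.921). Paxbp1, 113 bp from 4931406G06Rik, had -0.38 with GemC1 (adjusted p = 0.0254) and -0.18 with Mcidas (adjusted p = 0.436). Both calls were lost when single libraries were left out: 5330417C22Rik without GemC1 replicate 1 or GFP replicate 2, and Paxbp1 without GemC1 replicate 1, GemC1 replicate 3, GFP replicate 2 or GFP replicate 3.

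**Figure D4:**
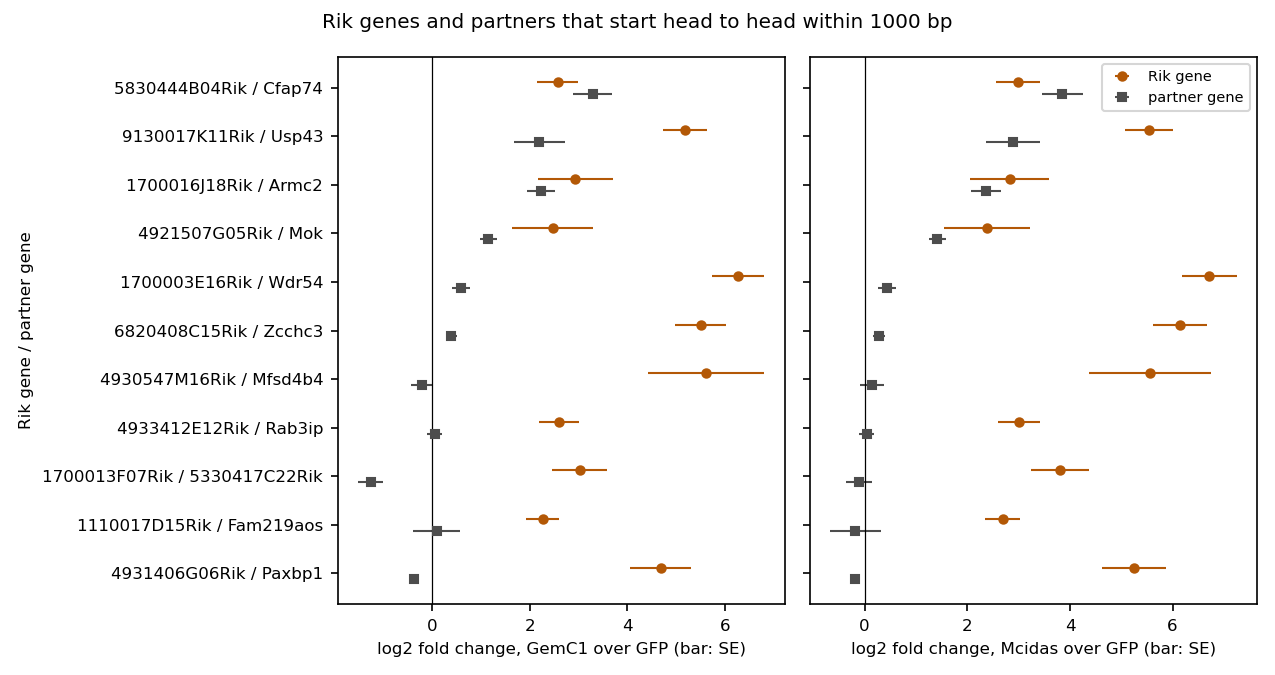
Log2 fold change over GFP, with its standard error, of Rik genes (circles) and the genes that start on the other strand within 1000 bp (squares), for GemC1 (left) and Mcidas (right). 4 of the 11 neighbours rose with both factors, of which only Mok shares no exon with its Rik gene. The neighbours of 1700003E16Rik and 4933412E12Rik stayed near 0 to 0.59 while the Rik genes lay above 2.5.

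The stretch between the nearest transcript starts is short enough to show for 3 such pairs, 1 in which the neighbour rose (Mok) and 2 in which it did not pass the test (Fam219aos and Rab3ip). They are chr12:110840940-110841028 (plus strand), between 4921507G05Rik and Mok, chr4:41517334-41517436 (minus strand), between 1110017D15Rik and Fam219aos, and chr10:116950454-116950566 (plus strand), between 4933412E12Rik and Rab3ip, each ending at an annotated transcript start of the Rik gene. In 4933412E12Rik another transcript starts upstream, at the gene start 116949757, and a Rab3ip transcript also starts further out, so the stretch lies within the annotated span of both genes. GC content was 58.4%, 50.5% and 83.2%, and none held a base of the motifs searched.

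4921507G05Rik and Mok: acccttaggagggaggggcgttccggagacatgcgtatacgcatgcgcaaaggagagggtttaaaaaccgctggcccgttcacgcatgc
1110017D15Rik and Fam219aos: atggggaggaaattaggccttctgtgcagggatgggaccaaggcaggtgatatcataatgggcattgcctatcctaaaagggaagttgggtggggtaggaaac
4933412E12Rik and Rab3ip: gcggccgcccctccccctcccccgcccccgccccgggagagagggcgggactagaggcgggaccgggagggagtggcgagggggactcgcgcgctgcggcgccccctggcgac

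The 4933412E12Rik transcript itself was at 2.42, 3.57 and 2.87 CPM with GemC1, 2.93, 3.64 and 5.24 with Mcidas, and 0.668, 0.534 and 0.201 with GFP, while Rab3ip, which starts 114 bp away, was at 48.96 to 65.2, 49.01 to 71.0 and 47.7 to 59.3 CPM. 4921507G05Rik was the lowest gene of the list by CPM over the factor libraries, at 0.351, 0.595 and 0.957 CPM with GemC1, 0.746, 0.715 and 0.305 with Mcidas, and 0.203, 0.121 and 0 with GFP.

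Overlap of exons was also looked up for the 34 genes alone, so its share over all genes is not given. Exons of 12 of the 34 genes overlap those of another gene: the antisense pair above, and 10 genes that overlap 11 genes outside the list, so part of their reads may belong to either. Of these 11, 10 could be tested and 9 rose with both factors by edgeR (3.86% and 4.03% of all genes did); Gm26912 did not pass. Among the 9 were Cfap45, Cfap52, Cfap74 and Cfap299, all cilia and flagella associated genes, and Armh1. 1700012C08Rik lies wholly within exons of Armh1 on the same strand, and RefSeq lists its name under Armh1. It was at 0.736, 0.806 and 0.858 CPM with GemC1, 0.488, 1.52 and 1.70 with Mcidas, and 0, 0.0972 and 0.0288 with GFP, while Armh1 was at 4.95 to 7.88, 2.52 to 10.4 and 0.403 to 0.697 CPM. 5330438I03Rik, antisense to Ildr2 and sharing 32.0% of its exon length with it, was at 4.73, 2.98 and 5.41 CPM with GemC1, 2.38, 4.91 and 7.20 with Mcidas and 1.13, 1.04 and 0.259 with GFP. Ildr2 stood at 16.3 to 23.3, 15.9 to 32.9 and 1.99 to 6.83 CPM, and was again lowest in GFP replicate 3. Its edgeR calls were lost without the filter on low counts (adjusted p = 0.101 and 0.0737). Without strand, the level of an antisense gene and that of its partner cannot be told apart in the shared stretch.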

How the data were processed

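Bulk RNA-seq of 9 libraries was analysed from the raw counts per Ensembl gene that the authors deposited, 1 table per library. Per the labels' protocols, cDNA was made from total RNA with the SMART-Seq v4 kit and libraries with Nextera XT, neither of which marks strand, and sequenced as 75 bp reads on a NextSeq 500. Per the submitters' processing notes the tools were STAR 2.5.2b, HTSeq 0.5.3 and DESeq2 1.8.1 with build mm10. No source used here gives the counting mode, annotation or strand setting. Symbols, biotypes and exons came from GENCODE M21 (53274 of 53379 identifiers matched, and unmatched ones held at most 0.068% of counts), and promoter windows from RefSeq (GRCm38.p6, 22 of 34 genes matched).

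CPM used library totals. Tests used edgeR 4.0.16 (R 4.3.3) on the counts: TMM scaling (factors 0.960 to 1.03), filterByExpr (minimum count 10, minimum total 15), robust quasi-likelihood fit of all 9 libraries by group, 2-sided, Benjamini-Hochberg over 19572 genes. The script was tested on simulated data. All pairs of libraries within a group differed by more than counting noise (chi-square over its degrees of freedom 14.1 to 25.8). Alternatives were DESeq2 1.42.0, its size factors, other filters, a replicate block, fits of only the groups compared, leaving out each library, and other limits of the rule. Intervals of ratios are 95% exact counting intervals and cover counting error only.

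The 34 genes, the gene lists and the tests were chosen with earlier results of these data known. Values by library are given for the 12 genes with the highest mean CPM in the factor libraries, for the gene at 0 in GFP, for genes with a RefSeq gene name, for genes at the limit of the rule, and for neighbours; values of the other genes of the list were added after they had been seen.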

Additional observations from a re-analysis of the deposited data

How the results depend on the processing

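The number of Rik genes that met the rule was 34. It was 55 at 2 times and 22 at 8 times the GFP mean, and 32 to 35 when each library was left out. Genes called for GemC1 over GFP numbered 1015 by edgeR, 1817 by DESeq2, and 475 to 1131 with a library left out; the lowest counts came without GFP replicate 3 (475) and GFP replicate 2 (514). Genes called between the factors numbered 10, and 494 by DESeq2, 195 without a filter on low counts, 5 with only the groups compared, and 4 to 13 with a library left out. With the replicate number as a block they numbered 6. The deviations of same-numbered libraries correlated at -0.125 to 0.0459, so little shared deviation was seen. Such correlations cannot show whether same-numbered libraries were prepared together. None of the 34 genes was called between the factors under any of these settings, though not all could be called in each. With a filter of at least 1 CPM in 3 libraries only 27 were tested. DESeq2 gave no adjusted p for some, among them 1700013F07Rik and 2010300C02Rik. Of the pathway genes, 0 were called between the factors, 2 by DESeq2, 2 without the filter, and 0 to 3 with a library left out (3 without Mcidas replicate 1). Windows with an X-box arm numbered 5, 3 with the longer arm GTTGCCA, and 1 for the facing arms, which were chosen after seeing the data. Neighbours near 0 changed sign when single libraries were left out: log2 fold changes ranged from -0.19 to 0.32 (GemC1) and -0.664 to 0.0638 (Mcidas) for Fam219aos, -0.0378 to 0.151 and -0.13 to 0.15 for Rab3ip, -0.275 to 0.0666 (Mcidas) for 5330417C22Rik, and -0.0334 to 0.297 (Mcidas) for Mfsd4b4. Of 655 values of neighbours and reference genes against GFP, 627 kept direction and call, 13 lost the call, 7 gained it and 8 changed sign. The cause of these shifts was not tested. With 3 libraries a group and several genes near 1 CPM, a difference between the factors of 2-fold lay inside the interval of 33 of the 34 genes.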
